A study of Mus musculus with 4 samples.

Results

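The Egr transcription factors *Egr1*, *Egr2*, *Egr3* and *Egr4* and their corepressors *Nab1* and *Nab2* were followed in astrocyte-enriched cultures (AECs) exposed to oxygen-glucose deprivation (OGD). Every non-control probe that the arrays assign to one of these 6 gene names was taken, which gave 7 probes of 39429 probes (6 gene names of 29676). The family was selected on its processed signal in untreated and OGD arrays, so its differences between the groups are a description and carry no test. The AECs were mixed glial cultures from the cortex of newborn ICR mice. Both groups had been treated with PLX3397, which blocks the CSF1 receptor that microglia need to survive, to remove these cells. One group was left untreated (n = 2) and the other was kept in glucose-free medium under hypoxia for 15 h (n = 2). According to the methods, wells differ in both the culture and the pups they came from. Each RNA sample was labeled with Cy3 and read on an array of its own, and the 4 arrays lay on a single slide.

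Egr proteins are zinc finger transcription factors encoded by immediate early genes, which are transcribed within minutes of a stimulus without new protein synthesis. Growth factors, neuronal activity and stress reach their promoters through MAP kinases, serum response factor with its Elk partners, and CREB, and the proteins then bind GC-rich sites in their target genes. Nab1 and Nab2 bind Egr1, Egr2 and Egr3 and repress their activity, partly through the chromatin remodeler Chd4, whereas Egr4 lacks the domain they bind. *Nab2* is itself an Egr target, so the pair forms a feedback loop. In the nervous system *Egr1* is widely used as a marker of activity, and *Egr2* is required for myelination by Schwann cells.

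Probes of *Egr2*, *Egr4*, *Nab1* and *Nab2* are shown to identify what was read, since 2 probes stand for *Nab2*. Those of *Egr1* (NM_007913) and *Egr3* are not printed. These are the first 30 bases of each 60-base probe, in lower case and 5′ to 3′, as the scanner files give them.
Egr2: ccgctgatttgtttggttattagctcttaa
Egr4: tcctttttgttgttcattttttgtaaagca
Nab1: gctttagatcatgctgttatagatatgagt
Nab2 upstream probe: agctgaataagaagctggcgcggagcgtgg
Nab2 downstream probe: cctgtcgaacacttagcgtgtctttctttt
On mm9 the *Egr2* probe (listed under NM_010118) lies at chr10:67004798-67004857 on the plus strand and the *Egr4* probe (NM_020596) at chr6:85461153-85461212 on the minus strand. The *Nab1* probe (NM_008667) lies at chr1:52515132-52515191 on the minus strand. Of the *Nab2* probes, both on the minus strand, the upstream one (NM_001122895) lies at chr10:127101413-127101472 and the downstream one (NM_008668) at chr10:127098009-127098068, 3404 bases apart. The GC content was 35% for each of these probes except the *Nab2* upstream probe, which had 55%, and the median over all 43020 non-control spots was 41.7%.

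Promoter sequences were available in the RefSeq table (GRCm38.p6) for 4 of the 6 genes, as windows from 250 bases before to 50 bases after each transcription start. They were searched on both strands for the CArG box bound by serum response factor, the cyclic AMP response element TGACGTCA and its core TGACG, the Egr sites GCGTGGGCG and GCGGGGGCG, and the hypoxia response element core ACGTG. The core TGACG lies within the full element, so every full element also counts as a core. The *Egr4* promoter is shown because this gene had the largest difference of the family, and capitals mark the core TGACG read on the opposite strand.
Egr4, chr6:85513590-85513839, minus strand: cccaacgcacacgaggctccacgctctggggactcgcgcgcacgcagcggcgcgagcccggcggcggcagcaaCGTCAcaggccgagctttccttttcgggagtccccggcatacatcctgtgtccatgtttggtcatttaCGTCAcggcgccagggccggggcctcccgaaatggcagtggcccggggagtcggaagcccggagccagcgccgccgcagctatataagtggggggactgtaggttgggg
The sites began 177 and 109 bases before the start, and no other searched motif was found in the *Egr4* window. The core TGACG was in 20.8% of all 32851 promoter windows.

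*Egr2* had 5 windows, of which 4 held a CArG box, a motif found in 1.63% of all windows. In 3 overlapping windows the same CArG box lay just ahead of a core TGACG. Another core TGACG lay upstream of the box, beginning 111 bases before the start of the first of these windows. The box and the core just after it are shown in capitals, and these sites began 72 and 55 bases before that start.
Egr2, chr10:67537793-67537822, plus strand: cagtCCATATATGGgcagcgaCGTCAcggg
The *Nab1* window held GCGTGGGCG at 2 positions, beginning 141 and 109 bases before the start, on opposite strands. That Egr site was in 0.612% of all windows. Both stretches are shown with the site in capitals.
Nab1 distal site, chr1:52500570-52500599, minus strand: gccccgcggcCGCCCACGCcgggatctgcg
Nab1 proximal site, chr1:52500538-52500567, minus strand: actcggccgcGCGTGGGCGggagccggagc
The *Nab1* window also held GCGGGGGCG, found in 2.91% of windows, and 1 core TGACG. None of the searched motifs was found in the *Nab2* window. The full element TGACGTCA, in 1.79% of all windows, was in none of the windows of the 4 genes, and ACGTG, in 19.6%, was only in the *Egr2* window farthest upstream. A match of letters is not evidence that a factor binds there.

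The processed signal is an intensity after background subtraction, and it had no normalization between arrays. The arrays' 75th percentiles were 2135 and 2164 for untreated AECs against 887 and 776 for OGD, which in log2 units is -1.37. Between 64.5% and 73.7% of spots per array were marked well above background. Differences below are therefore given on log2 signal after subtracting each array's 75th percentile, and again after scaling on 9 control probes for spiked-in RNA, whose signal differed by -0.085 on average. For single control probes the difference was from -0.75 to 0.28, a spread that the standard errors given on this scale leave out. The second scaling moved the median of the 28254 tested probes by -1.29, from 0.18 to -1.11 on the log2 scale. Per the methods, a set amount of total RNA was labeled, so neither scale gives a signal per cell. From bulk RNA, fewer cells of a type and less RNA per cell cannot be told apart.

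Of the Egr genes, *Egr4* differed the most between the groups. In untreated AECs its processed signal was 38.8 and 41.0, and after OGD it was 2083 and 2140. Both OGD arrays lay far above both untreated ones, and the probe was marked well above background on all 4 arrays. On the log2 scale, relative to the 75th percentile, the mean was -5.75 ± 0.040 in untreated AECs and 1.35 ± 0.16 after OGD (SD, n = 2 each). The difference was 7.10 (SE 0.11), a 137-fold higher signal, which ranked 6 among the 28254 tested probes. With spiked-in scaling it was 5.81 (SE 0.13), or 56.1-fold. The untreated signal was close to the background: before subtraction it was 83.5 and 86.8, against 2402 and 2315 after OGD, a ratio of 27.7. With normexp background correction the log2 difference was 5.85. The size of the *Egr4* difference thus varied with the background correction and the scaling, whereas it was higher after OGD in each of the 14 other settings run on it. Of these, the replicate block, the other filters and the series table could not change the value.

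*Egr1*, the most studied member, was already bright in untreated AECs. Its processed signal was 3731 and 3600 there, against 13095 and 12291 after OGD. The groups did not overlap. The normalized log2 signal was 0.77 ± 0.050 and 3.93 ± 0.071 (SD, n = 2 each), and the difference of 3.16 (SE 0.086) was 8.97-fold. With spiked-in scaling the log2 difference was 1.88 (SE 0.10), or 3.67-fold.

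*Egr2*, known for its role in myelin formation, had the smallest difference of the 3 measured Egr genes. Its processed signal was 738 and 678 in untreated AECs and 1848 and 1591 after OGD. Both OGD arrays were again above both untreated arrays. The normalized log2 signal was -1.60 ± 0.10 and 1.05 ± 0.017 (SD, n = 2 each), a difference of 2.65 (SE 0.090) or 6.28-fold, and with spiked-in scaling 1.36 (SE 0.11) or 2.57-fold.

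*Egr3* was not well above background on any array. Its processed signal was 4.18 and 1.35 in untreated AECs and 1.33 and 2.24 after OGD. The lowest signal marked well above background on the same arrays was 7.34, 6.33, 6.33 and 7.00. No fold is given for *Egr3*, since these values set only an upper bound in both groups. Its only probe starts at base 726 of the transcript, and those of *Egr1*, *Egr2* and *Egr4* at 2856, 2826 and 2050. Whether this position lowered the signal was not tested.

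**Figure D1:**
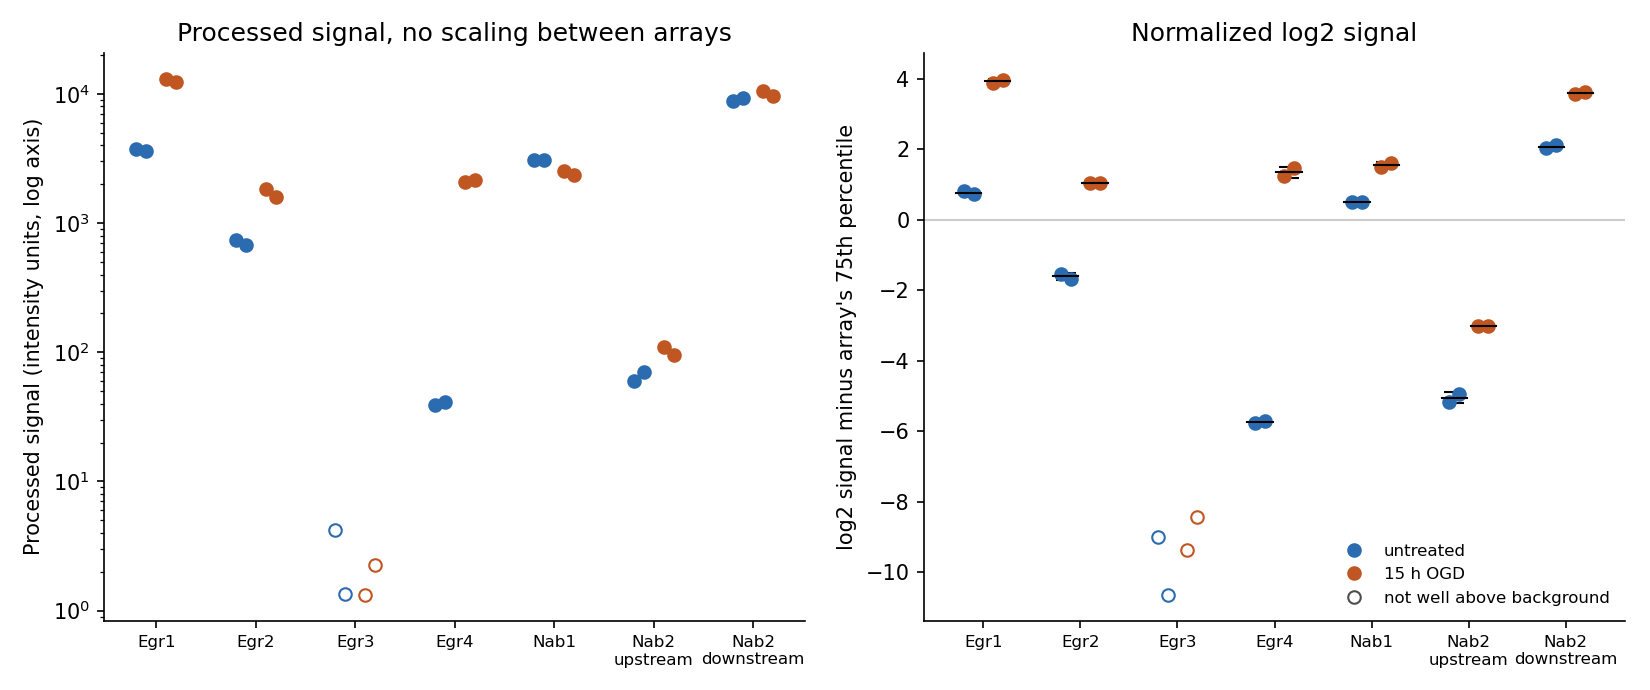
Processed signal (left, log axis, intensity units) and log2 signal minus the array's 75th percentile (right) of the 7 probes on 2 untreated (blue) and 2 OGD (orange) arrays. Each point is an array, black lines are the mean with SD, and hollow points were not well above background; levels of different probes cannot be compared. *Egr4* went from 38.8 and 41.0 to 2083 and 2140, whereas the unscaled signal of *Nab1* was lower on both OGD arrays.

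Of the corepressors, *Nab1* depended on the scaling. Its processed signal was 3056 and 3075 in untreated AECs and 2525 and 2376 after OGD, so the OGD arrays were lower, by a ratio of 0.799. Relative to each array's 75th percentile it was higher: the log2 signal was 0.51 ± 0.0075 and 1.56 ± 0.073 (SD, n = 2 each), a difference of 1.05 (SE 0.083) or 2.07-fold. With spiked-in scaling the sign turned, to -0.24 (SE 0.11) on the log2 scale, a size within the range of the single control probes.

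*Nab2* was read by both of its probes. The bright downstream probe had a processed signal of 8826 and 9362 in untreated AECs and 10534 and 9591 after OGD. The OGD arrays were only slightly higher, by a ratio of 1.11. After subtraction of the 75th percentile the log2 signal was 2.08 ± 0.046 and 3.60 ± 0.040 (SD, n = 2 each), a difference of 1.52 (SE 0.080) or 2.86-fold. It was 1.18 with quantile normalization and 0.23 (SE 0.11) with spiked-in scaling.

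The dim upstream probe of *Nab2* had a processed signal of 59.5 and 70.3 in untreated AECs and 109 and 96.0 after OGD. Its arrays did not overlap either. The log2 signal was -5.05 ± 0.16 and -3.02 ± 0.0056 (SD, n = 2 each), a difference of 2.04 (SE 0.11) or 4.10-fold, and 0.75 (SE 0.14) with spiked-in scaling. The downstream probe's difference minus that of the upstream probe was -0.52 on the log2 scale. It was -0.18 with normexp correction and -0.91 with quantile normalization, so the size of the disagreement varied with the processing.

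In all, 6 of the 7 probes, for 5 of the 6 genes, were well above background on all 4 arrays. Relative to the 75th percentile these 6 were higher after OGD, with both OGD arrays above both untreated arrays, as was the case for 49.2% of 28163 probes. On the spiked-in scale 5 were higher and 1, *Nab1*, was lower. Only *Egr4* was over 10-fold higher, a limit passed by 0.811% of the tested probes. The median log2 difference of the 6 probes was 2.34, beside 0.18 over all tested probes, and with spiked-in scaling 1.05 beside -1.11. As the family was chosen by these same values, nothing is inferred from the counts. The median gap between replicate arrays over all tested probes was 0.089 (untreated) and 0.157 (OGD) on the log2 scale.

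**Figure D2:**
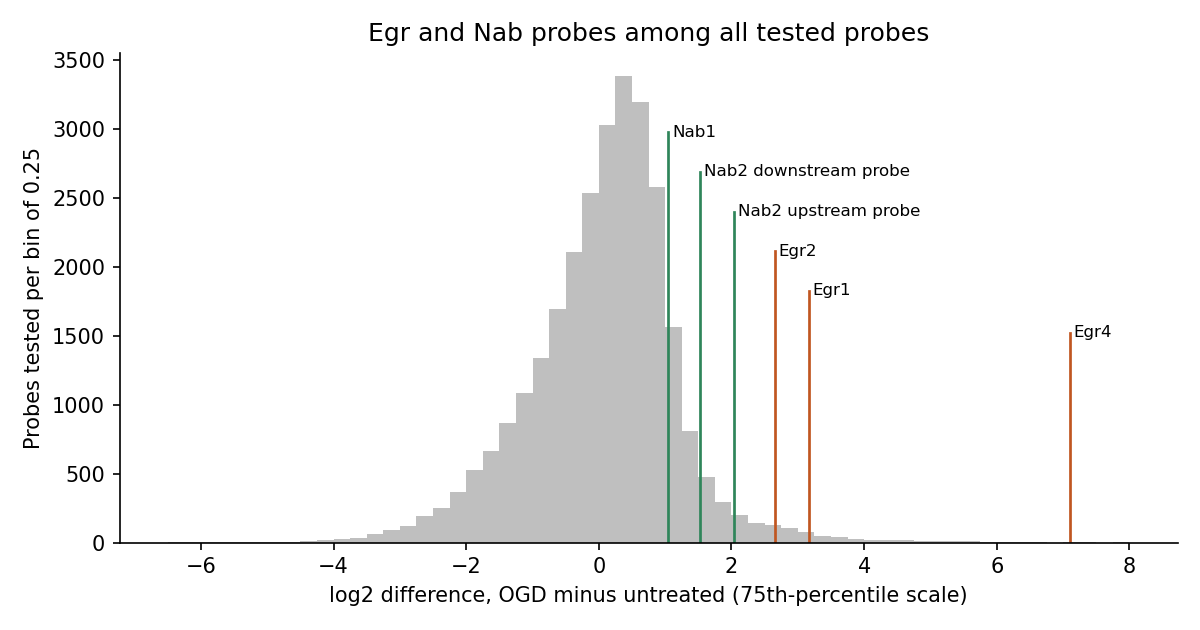
Number of tested probes (vertical axis, bins of 0.25) by log2 difference, OGD minus untreated, after subtraction of each array's 75th percentile. Lines mark the 3 Egr probes (orange) and 3 Nab probes (green); line height has no meaning. All 6 lie to the right of the median of 0.18, with *Egr4* at 7.10.

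**Figure D3:**
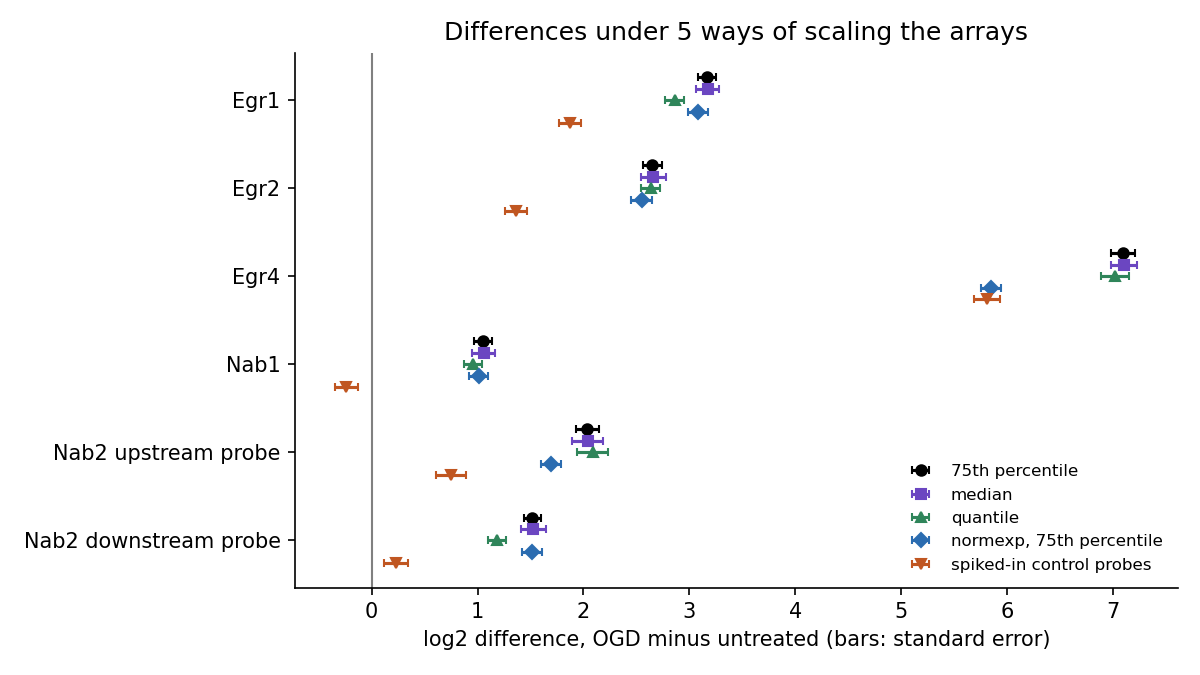
Log2 difference, OGD minus untreated, of the 6 measured probes (vertical axis) under 5 ways of scaling or background correction, with standard errors as bars. Spiked-in scaling gave the lowest value for each probe and turned the sign of *Nab1* (-0.24), and *Egr4* stayed above 5.8 in each.

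The pattern over the 4 arrays was compared with 21569 probes well above background on all of them, by the root mean square difference of log2 signal after centering each probe. For *Egr4* the nearest was *Nr4a3*, an orphan nuclear receptor and immediate early gene, at 0.157, and no other probe lay within 0.2. *Nmrk2* (0.326) and *Tac1* (0.341) followed, with log2 differences of 6.56 and 6.42. *Egr4* and *Nr4a3* were both close to the background in untreated AECs, and with normexp correction their differences were 5.85 and 4.52. For *Egr1*, 132 probes lay within 0.2, and the nearest were *Gab2* (0.026), *Tent5a* (0.032) and *Glis3* (0.035). For *Egr2* there were 210, with *Smad5* (0.012), *Clcn5* (0.027) and *Map3k20* (0.028) nearest. *Nab1* and the *Nab2* downstream probe had a more common pattern, with 3877 and 1396 probes within 0.2. The nearest to *Nab1* were *CB248850*, *H2-K1* and *Me1*, and those to *Nab2* were *Slc30a4*, *Fstl3* and *Got1l1*. With 4 arrays, likeness mostly reflects a like size of difference.

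Genes that act with the family were then read, each by its brightest probe. The test was limma with Benjamini-Hochberg adjustment over all 28254 probes. Of 21061 genes tested, 37.1% were higher and 27.8% lower after OGD, with a median log2 difference of 0.16. With spiked-in scaling 809 were higher and 17543 lower (median -1.13), so each list is given on both scales.

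Among the upstream activators, the kinases and factors that drive Egr transcription, 7 of 16 genes were higher, 3 were lower and 6 did not pass (median 0.17). With spiked-in scaling 0 were higher and 12 lower (median -1.11). *Rps6ka1*, a ribosomal S6 kinase, was lower by a log2 difference of -2.24 (adjusted p = 0.00074), and the serum response factor coactivators *Mrtfb* and *Mrtfa* were at -1.83 (adjusted p = 0.00078) and -1.11 (adjusted p = 0.0064). These 3 genes were also lower with spiked-in scaling. Other *Mrtfb* probes were at 1.03 and -0.75, and the mean over its probes was -0.51. *Creb1*, which binds the cyclic AMP response element, was at 1.23 (adjusted p = 0.0015) by its brightest probe and at -1.26 by another. *Rps6ka3* was at 1.20 (adjusted p = 0.0021), with other probes at 1.21 and -0.61, and the ternary complex factor *Elk4* at 1.098 (adjusted p = 0.0076). With spiked-in scaling *Creb1*, *Rps6ka3* and *Elk4* were at -0.054, -0.089 and -0.19 and did not pass. *Elk4* did not pass without untreated replicate 2 either (adjusted p = 0.060).

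The Nab partners and coregulators include subunits of the NuRD complex, through which Nab proteins repress, and coactivators of Egr1. Of 16 genes, 10 were higher, 4 were lower and 2 did not pass (median 0.42), but with spiked-in scaling 0 were higher and 16 lower (median -0.87). *Chd4*, the remodeler that Nab proteins recruit, was lower by both scalings, at -2.03 (adjusted p = 0.0010) and -3.31. The cofactor *Hcfc1* was at -1.25 (adjusted p = 0.0012), or -0.53 as the mean over its probes, and the acetyltransferase *Ep300* at -0.56 (adjusted p = 0.016). *Ep300* did not pass with normexp correction, at -0.22 (adjusted p = 0.072), nor without untreated replicate 1 (adjusted p = 0.10) or 2 (adjusted p = 0.070). The related *Crebbp* was at 0.89 (adjusted p = 0.0066), with another probe at -0.54 and a mean over probes of 0.18 (adjusted p = 0.19). The NuRD subunits *Rbbp4* and *Mta1* were both at 0.95 (adjusted p = 0.0021 and 0.0020), and *Rbbp4* was at 0.36 with quantile normalization. With spiked-in scaling *Rbbp4*, *Mta1* and *Crebbp* turned to -0.34, -0.34 and -0.40. The count of genes past the adjusted p, 14, was 7 without untreated replicate 1 and 6 without untreated replicate 2.

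Of 25 Egr target genes, 24 were tested, and 17 were higher, 1 was lower and 6 did not pass (median 0.93). With spiked-in scaling 8 were higher and 12 lower (median -0.36). *Arc*, a synaptic immediate early gene, had a log2 signal of -2.45 and -2.32 in untreated AECs and 2.24 and 2.59 after OGD, a difference of 4.80 (adjusted p = 0.00073). *Vegfa*, the angiogenic factor and also a target of hypoxia-inducible factors, was at 3.56 (adjusted p = 0.00073), with another probe at 5.06. The death ligand *Fasl* was well above background only after OGD and was kept through those arrays, so its call, counted among the 17, is no support for a difference. Its processed signal on the 75th-percentile scale was at least 12.7-fold higher, a bound for this scale and background correction alone, and with normexp correction the fitted log2 difference was 1.79. *Arc* and *Vegfa* also passed with spiked-in scaling. *Pdgfb*, a platelet-derived growth factor chain, was the only gene lower on the 75th-percentile scale, at -0.65 (adjusted p = 0.0055). It did not pass without untreated replicate 1 (adjusted p = 0.058) or 2 (adjusted p = 0.053).

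The Egr2 myelin program was mixed. Of 18 genes, 8 were higher, 5 were lower and 5 did not pass (median 0.25), and with spiked-in scaling 2 were higher and 15 lower (median -1.04). Of the 5 lower genes, 1 was well above background on only 3 arrays and was kept through a single group. The call of that gene is no support for a difference. With the filter on all 4 arrays 8 genes were higher and 4 lower. *Ndrg1*, which is also induced by hypoxia, was higher on both scales, at 2.15 (adjusted p = 0.00076) and 0.86. *Mbp*, myelin basic protein, was at 1.19 (adjusted p = 0.0026) but at -0.10 with spiked-in scaling, where it did not pass, and its other probe was at 0.50 (adjusted p = 0.15). The transcription factor *Pou3f2* was lower at -2.69 (adjusted p = 0.00075), as were the inhibitors of helix-loop-helix factors *Id4*, at -1.65 (adjusted p = 0.00089), and *Id2*, at -1.40 (adjusted p = 0.0012).

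GC-box zinc finger factors can occupy sites that overlap those of Egr proteins. Of 10 genes, 2 were higher, 3 were lower and 5 did not pass (median 0.039), and with spiked-in scaling 1 was higher and 9 were lower (median -1.25). *Klf5* was at 2.25 (adjusted p = 0.00076) and also rose with spiked-in scaling, at 0.96. *Sp2* was at 0.47 (adjusted p = 0.014) but at -0.82 with spiked-in scaling. *Klf13* was at -1.23 (adjusted p = 0.0072), with other probes at -1.63 and 0.17. *Maz* was at -0.93 (adjusted p = 0.0033), which turned to 0.21 with normexp correction, and *Patz1* at -0.71 (adjusted p = 0.0043). Without untreated replicate 2, *Sp2* (adjusted p = 0.12), *Klf13* (adjusted p = 0.054) and *Patz1* (adjusted p = 0.054) did not pass, nor without untreated replicate 1 did *Sp2* (adjusted p = 0.082) and *Klf13* (adjusted p = 0.052). The count of genes past the adjusted p, 5, was 3 without untreated replicate 1 and 2 without untreated replicate 2.

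The other immediate early genes had the highest median of the lists. Of 28 genes, 21 were higher, 4 were lower and 3 did not pass (median 2.75), and with spiked-in scaling 17 were higher and 8 lower (median 1.46). *Nr4a3* had a log2 signal of -7.86 and -7.92 in untreated AECs, close to the background, and -0.64 and -0.35 after OGD, a difference of 7.40 (adjusted p = 0.00073), or 4.52 with normexp correction. Its relative *Nr4a1* was at 5.88 and the AP-1 subunit *Fosb* at 5.19 (adjusted p = 0.00073 each), the latter 4.40 with normexp correction. Not all of the list was higher: the phosphatase *Dusp6*, which restrains ERK, was at -1.17 (adjusted p = 0.0014), *Klf2* at -0.92 (adjusted p = 0.0044) and the antiproliferative gene *Btg2* at -0.41 (adjusted p = 0.029). *Btg2* did not pass without untreated replicate 1 (adjusted p = 0.13) or 2 (adjusted p = 0.17). *Egr1*, *Egr2* and *Egr4*, at 3.16, 2.65 and 7.10, lay within the range of this list, from -1.17 to 7.40.

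**Figure D4:**
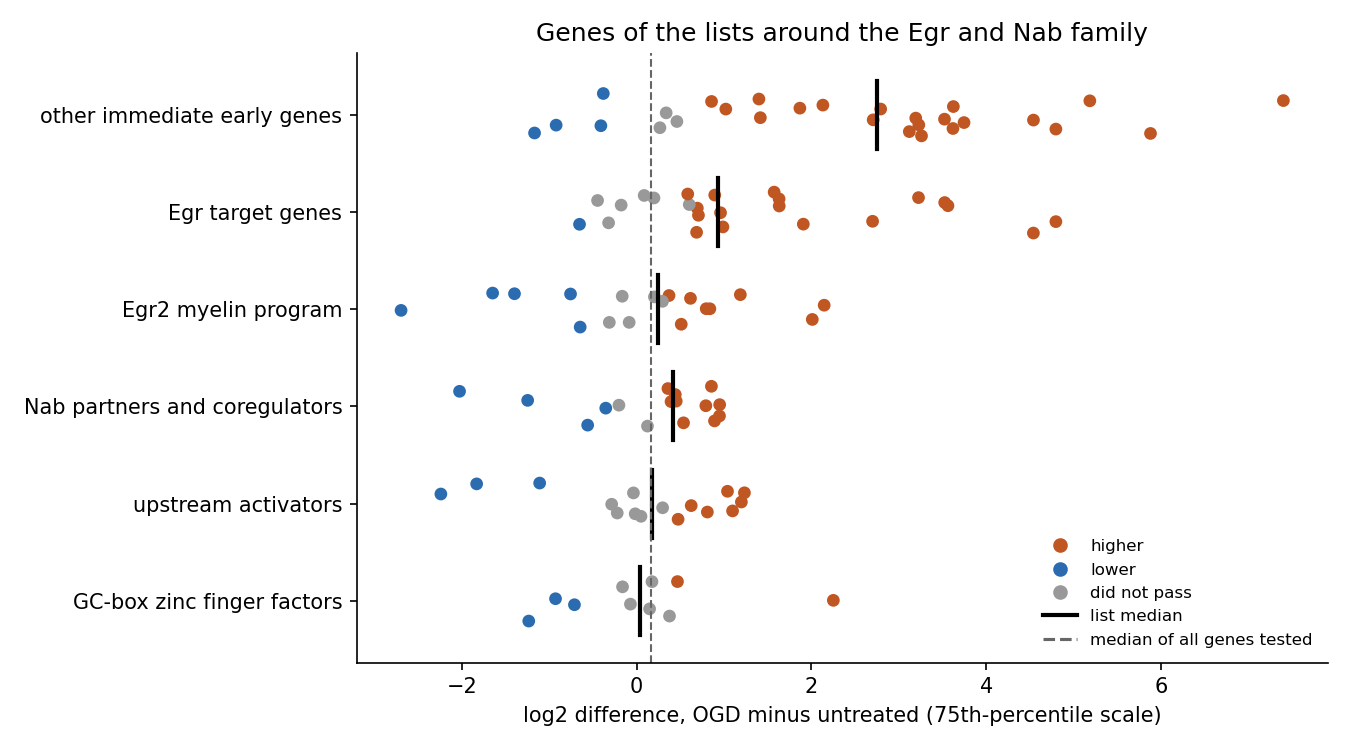
Log2 difference, OGD minus untreated, after subtraction of each array's 75th percentile, for every tested gene of 6 lists. Points are genes, orange higher, blue lower and grey not past the adjusted p of limma, thick lines are list medians, and the dashed line is the median of all genes (0.16). The list of other immediate early genes spans -1.17 to 7.40, with a median of 2.75.

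The labelled cell type was checked with marker lists. All 12 astrocyte markers were well above background on the 4 arrays, and their summed signal was 188 and 166 multiples of the array's 75th percentile in untreated AECs and 250 and 249 after OGD. Relative to the 75th percentile 9 of the 12 were higher on both OGD arrays and 2 were lower, whereas with spiked-in scaling all 12 were lower and the sum after OGD was 0.580 of the untreated one. On the 75th-percentile scale, microglial markers (8 of 10 on all arrays) summed to 5.36 and 4.98 and then to 11.69 and 11.45. Oligodendrocyte markers (9 of 10) went from 29.3 and 29.5 to 26.3 and 25.5, and NG2 glia markers (3 of 5, *Neu4* on none) from 1.66 and 1.61 to 1.32 and 1.28. Neuronal markers (7 of 9, *Slc17a7* on none) were at 28.8 and 26.9, then 28.7 and 31.7, mostly from *Stmn2* (22.6 and 21.0, then 22.1 and 25.6). Meningeal fibroblast markers (6 of 7) were at 20.8 and 16.6, then 18.1 and 13.004. Levels of different probes cannot be compared, so the sums do not rank the cell types. Endothelial markers (2 of 5, *Cldn5*, *Tek* and *Flt4* on none) were between 0.137 and 0.179. With spiked-in scaling the sums after OGD were lower in each list, from 0.329 of the untreated sum for NG2 glia to 0.923 for microglia. The part of these cell types in the Egr and Nab values was not tested.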

How the data were processed

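Two-group single-color arrays were read from the scanner files. Per the labels, images were processed by the submitters with Agilent Feature Extraction 11.5.1.1. The authors deposited, for every spot, a processed intensity: its brightness after background subtraction within the array, with no scaling between arrays. Probe positions are on mm9, as the file headers give them, and gene names are those of the array design.

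Control and outlier spots were left out, spots of a probe were averaged as log2, and each array's 75th percentile was subtracted. Probes well above background (at least a fraction of 0.5 of their spots) on both arrays of a group were kept. OGD was set against untreated with limma 3.58.1 (lmFit, eBayes; R 4.3.3) and Benjamini-Hochberg adjustment at 0.05 over all 28254 probes kept. No array has a read depth, and 2 arrays per group limit the precision. The p-values measure the spread between these samples. The steps were tested on simulated data with 200 changed probes.

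The members, gene lists and alternatives were chosen with earlier results of these data known. Named genes were every Egr and Nab probe, in each list the 3 largest increases and the 3 largest decreases past the adjusted p, and the 3 nearest patterns per gene; 1 gene that the rule names is not reported here. A gene's value is that of its brightest probe, and a fold against a dim group is the bright mean over the higher of the probe's own signal and the array's lowest signal well above background. The alternatives were the methods' unpaired test, an intensity trend with a robust prior, a replicate block, normexp (offset 50), quantile, median, detected-probe percentile and spiked-in scaling, 2 other filters, outlier spots kept, the series table, the mean over probes, and each array left out. Sequences were read with Python 3.11.15 and pandas 2.3.3, and figures drawn with matplotlib 3.10.9.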

Additional observations from a re-analysis of the deposited data

How the results depend on the processing

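All 6 measured Egr and Nab probes had their lowest difference with spiked-in scaling. That scaling turned the sign of *Nab1* (-0.24), *Creb1* (-0.054), *Crebbp* (-0.40), *Elk4* (-0.19), *Mbp* (-0.10), *Mta1* (-0.34), *Rbbp4* (-0.34), *Rps6ka3* (-0.089) and *Sp2* (-0.82). The mean over probes turned *Creb1* (-0.015), whose probes disagree, and normexp correction turned *Maz* (0.21). The log2 differences of *Egr1*, *Egr2*, *Egr4* and both *Nab2* probes were above 0 in each of the 14 alternatives run on them. The replicate block, the other filters and the series table could not change these values. Calls were also lost, with the sign kept, in 22 tests of named genes: *Ep300*, *Btg2*, *Crebbp*, *Elk4*, *Klf13* and *Mrtfa* with the methods' unpaired test (adjusted p from 0.053 to 0.087), *Btg2* with no filter on dim probes (adjusted p = 0.054), *Ep300* with normexp, *Crebbp* and *Sp2* with the mean over probes (adjusted p = 0.19 and 0.087), and the others with an untreated array left out. Normexp moved *Nr4a3* (4.52) more than spiked-in scaling did (6.11). The marker sums with spiked-in scaling and the gap between the *Nab2* probes under each setting were computed after the data had been seen. The count of probes over 10-fold past the adjusted p, 377, was 106 with normexp, 1227 with spiked-in scaling and 240 with the filter on all 4 arrays, where fewer probes were tested. The GC-box list had 10 genes past the adjusted p with spiked-in scaling. The causes were not tested.

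With each array left out in turn, a lone array taking its spread from the other group's arrays, the count over 10-fold was 384 to 479 and that past the adjusted p 10264 to 19190 (18354 with all arrays, 11108 without untreated replicate 1 and 10264 without untreated replicate 2). The counts past the adjusted p were 2 to 7 for GC-box factors, 6 to 14 for Nab partners, 7 to 12 for upstream activators, 12 to 20 for Egr targets, 9 to 14 for the myelin program and 22 to 26 for other immediate early genes. *Egr4* stayed the 1 member over 10-fold.

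Same-numbered arrays did not deviate together (correlation -0.057), so the numbers are not taken as pairs. With the replicate number as a block the count over 10-fold was 377, and those of the lists were 18 for Egr targets, 13 for the myelin program, 6 for GC-box factors and 13 for Nab partners.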
